A study of Mus musculus with 21 samples.

Results

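The nuclear-encoded subunits of respiratory complex I were followed as 37 gene symbols out of 21872 in the count tables of mouse brain at embryonic day 18.5 (E18.5) and 7 weeks. They were chosen by symbol alone, as names of the form Ndufa, Ndufb, Ndufc, Ndufs or Ndufv with a number, plus Ndufab1, with Ndufa4 left out. This pattern matched 38 rows, and Ndufa4l2, a paralog of the omitted Ndufa4 that is not a complex I subunit, is given apart. Mice received either plain water (control) or trientine (TETA), a drug that chelates copper, and the submitters label the TETA animals copper-deficient. Poly(A) RNA was sequenced in 21 libraries, which were 6 control and 6 TETA libraries at E18.5 and 5 control and 4 TETA libraries at 7 weeks. Dose, route and start of TETA are not given in the sources used here, and no genotype or strain is named. All tissue is labelled brain. The protocol text mentions prefrontal cortex of male animals at 7 weeks only, so region and sex at E18.5 are not stated. Nothing says that libraries of a group came from separate animals or litters, so p-values measure the spread between these libraries, which may be partly technical.

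Complex I is the largest enzyme of the mitochondrial respiratory chain. It takes electrons from NADH onto a flavin, passes them along a chain of iron-sulfur clusters to ubiquinone, and pumps protons across the inner membrane. Unlike complex IV, the cytochrome c oxidase at the end of the chain, it holds no copper. Its subunits are grouped by the part of the enzyme they are built into: the N module, where NADH is oxidised, the Q module, where ubiquinone is reduced, and the ND1, ND2, ND4 and ND5 modules of the membrane arm, named after the mitochondrially encoded subunit at the centre of each. The core subunits carry out the chemistry, and the accessory subunits surround them. Neurons depend on oxidative phosphorylation for most of their ATP, and loss of complex I subunits is a known cause of Leigh syndrome, a brain disease of early life.

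Sequence around the start of transcription was available from RefSeq (GRCm38.p6, 250 bases before to 50 bases after the start) for 33 of the 37 members, and it was searched on both strands for 3 motifs of factors known for mitochondrial genes. AAGATGGC, a core of the YY1 motif, occurred in 7 of the 33 members (21.2%), in 4.72% of the 11577 tested genes with a window and in 2.75% of all 32851 windows. GCATGCGC, letters of the motif of the nuclear respiratory factor NRF1, occurred in 3 members (9.09%), against 5.60% of tested genes and 2.71% of windows. CCGGAAG, the ETS-type motif bound by GABPA, occurred in 4 members (12.1%), Ndufb6, Ndufb7, Ndufs3 and Ndufs8, against 17.9% of tested genes and 8.86% of windows. No member matched 2 of these motifs. The YY1 windows are shown because all 7 lay on the coding strand within 23 to 39 bases after the start. In each of the 7, the ATG inside the motif is an annotated start codon in GENCODE M21, so the match also holds the first letters of the protein. Each line reads 5′ to 3′ along the gene, with the motif in capitals.
Ndufa3 (chr7:3617384-3617413, plus strand): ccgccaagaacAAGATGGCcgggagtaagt
Ndufa9 (chr6:126849097-126849126, minus strand): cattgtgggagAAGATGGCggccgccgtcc
Ndufb8 (chr19:44555393-44555415, minus strand): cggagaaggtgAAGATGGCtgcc
Ndufc1 (chr3:51408915-51408944, minus strand): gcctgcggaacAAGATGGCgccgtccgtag
Ndufs4 (chr13:114388045-114388070, minus strand): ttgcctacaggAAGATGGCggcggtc
Ndufs6 (chr13:73328433-73328460, minus strand): gggtcaccggcAAGATGGCggcggtgct
Ndufs7 (chr10:80249462-80249491, plus strand): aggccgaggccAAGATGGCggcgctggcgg
The NRF1 windows are shown for comparison, because their matches lay before the start, at bases -58, -83 and -8 in turn. The palindromic letters at Ndufa11 also matched on the opposite strand.
Ndufa11 (chr17:56717693-56717722, plus strand): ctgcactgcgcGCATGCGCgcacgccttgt
Ndufa6 (chr15:82354356-82354385, minus strand): tccgcggtagaGCATGCGCattgcagagcc
Ndufa8 (chr2:36049328-36049357, minus strand): tcgctggagacGCATGCGCagatggtaccg
A match is a description of letters and not of binding. The members with a YY1 match did not move as a block between the ages described below: their log2 fold change from E18.5 to 7 weeks ran from 0.02 (Ndufs4) to 0.91 (Ndufb8), with a median of 0.56 against 0.49 for the 26 members without a match.

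The E18.5 libraries held 14678265 to 24308555 counts each, and the 7-week libraries 17838051 to 24035857. Deposited counts of a member in a library ran from 196 to 4444, and all 37 members passed the filter on low counts at both ages. Levels below are given as CPM, counts brought to a fixed library total, with TMM factors over all 21 libraries. All 13 mitochondrially encoded genes, with the 7 mt-Nd genes of complex I among them, were listed at 0 in every library, so levels of the mitochondrially encoded core are not reported. Neuron markers were present in every library, with a summed level of 5186 to 5446 CPM in E18.5 controls and 7878 to 8033 CPM in 7-week controls.

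Summed over the 37 members, controls at E18.5 held 1906 ± 103 CPM (SD, n = 6, from 1766 to 2064) and controls at 7 weeks 2846 ± 87.2 CPM (n = 5, from 2744 to 2966). Levels of different genes were compared per kilobase of the shortest principal transcript in GENCODE M21. On that scale the E18.5 control levels spread 7.61-fold, from 14.4 ± 0.757 CPM per kb for Ndufb4 to 109 ± 7.51 for Ndufa7, with a median of 57.1. After Ndufa7 came Ndufc2 at 89.9 ± 5.03, Ndufb8 at 89.0 ± 6.34, Ndufc1 at 88.6 ± 6.22 and Ndufb10 at 88.4 ± 10.5 CPM per kb, which did not differ beyond their spread. Controls at 7 weeks spread 10.8-fold, from 15.5 ± 1.38 CPM per kb for Ndufb4 to 168 ± 5.54 for Ndufb8, with a median of 84.8. Ndufb9 followed Ndufb8 within their spread at 162 ± 6.32, and Ndufa7 stood at place 12 with 96.8 ± 8.39 CPM per kb. Most of these proteins enter the finished enzyme in equal number, while their transcripts stood at unequal levels at either age. The place of Ndufc1, Ndufb2, Ndufab1, Ndufb1-ps, Ndufs5, Ndufs7 and Ndufs8 in this order depends on which principal transcript gives the length; Ndufb2 moved from place 14 to place 37 at E18.5 with the longest, at 6.92 CPM per kb, and the spread was then 15.8-fold at E18.5 and 25.5-fold at 7 weeks.

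**Figure D1:**
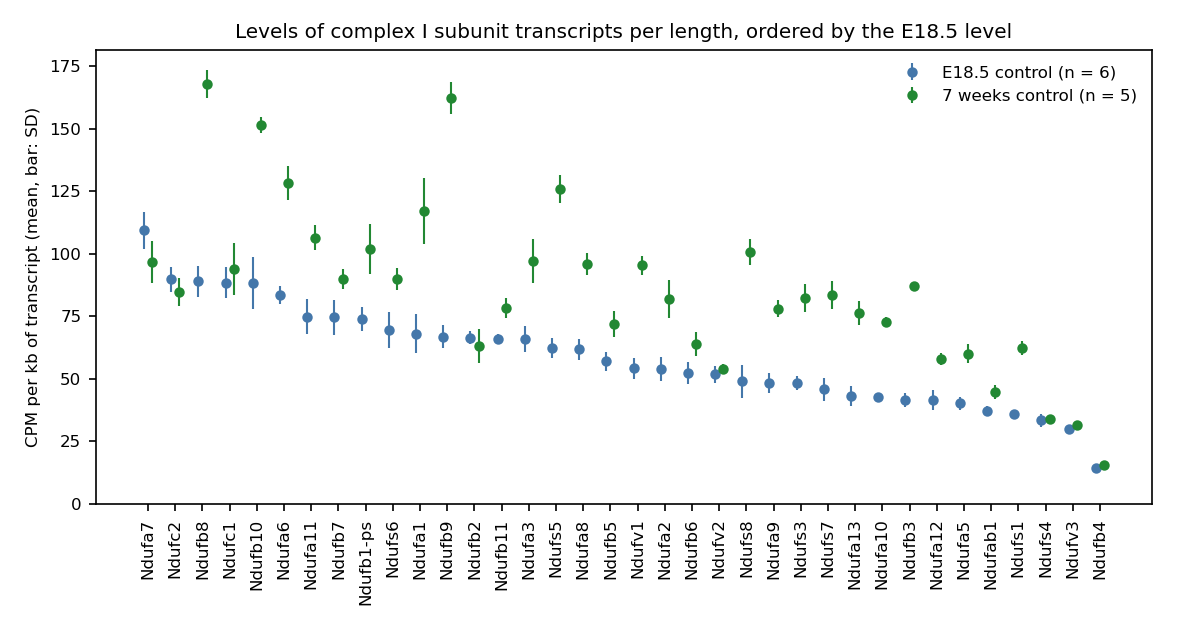
Level of 36 complex I subunit transcripts in control libraries, in CPM per kb of transcript, ordered by the E18.5 level (points: mean; bars: SD; 6 libraries at E18.5, 5 at 7 weeks). Lengths are those of the shortest principal transcript. Ndufa7 leads at E18.5 with 109 CPM per kb, Ndufb8 at 7 weeks with 168, and Ndufb4 is lowest at both ages. With the longest principal transcript Ndufb2 is lowest at both ages.

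The 7-week controls were compared with the E18.5 controls to set the late embryonic brain beside the young adult brain. By edgeR's quasi-likelihood test, with p-values adjusted over 14660 genes after Benjamini and Hochberg, 29 of the 37 members rose and 1 fell at an adjusted p under 0.05. Over all genes, 89.3% passed in either direction (89.7% at an unadjusted p under 0.05), 44% upward and 45.3% downward, so passing the test did not set a member apart, and direction and size are what the members are described by. The members' median log2 fold change was 0.58, a 1.49-fold higher level, beside -0.02 over all genes tested, and 34 of the 37 values lay above 0 and 3 below, against 49.3% and 50.7% of all genes. The libraries of the 2 ages did not overlap for 28 members, all of them higher at 7 weeks, against 79.5% of all genes in either direction. In bulk tissue, fewer cells of a type and less RNA per cell cannot be told apart. Age also cannot be told apart from the count table, which goes with it, or from region and sex, which are not stated at E18.5.

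Several lists of cell type markers moved further with age than the members' median. In controls all 6 oligodendrocyte markers rose, from a summed 61.1 to 71.2 CPM at E18.5 to 6589.7 to 7772 CPM at 7 weeks, and Mag, Mobp and Mog were under 1 CPM in every E18.5 control. All 6 astrocyte markers rose (summed 381 to 433 and 1952 to 2333 CPM) and all 5 microglia markers rose (summed 30.0 to 34.5 and 243 to 271 CPM). All 6 markers of progenitor and cycling cells fell (summed 291 to 318 and 53.6 to 60.8 CPM), as did all 5 blood markers (summed 127 to 258 and 35.2 to 52.8 CPM). Of the 5 neuron markers 3 rose and 2 fell. A further 3 lists held calls in both directions: 10 of 13 striatum markers rose and 2 fell (median 0.73), 1 of 6 cortical excitatory neuron markers rose and 5 fell (-0.54), and 1 of 4 endothelial markers rose and 2 fell (-0.32). The 3 choroid plexus markers tested rose (median 1.70), but the size of this rise leaned on 1 library. They summed to 1.22 to 3.99 CPM in E18.5 controls, to 60.5 CPM in 7-week control 4 and to 2.75 to 4.08 CPM in the other 7-week controls. The part of all these lists in the members' change was not tested.

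**Figure D2:**
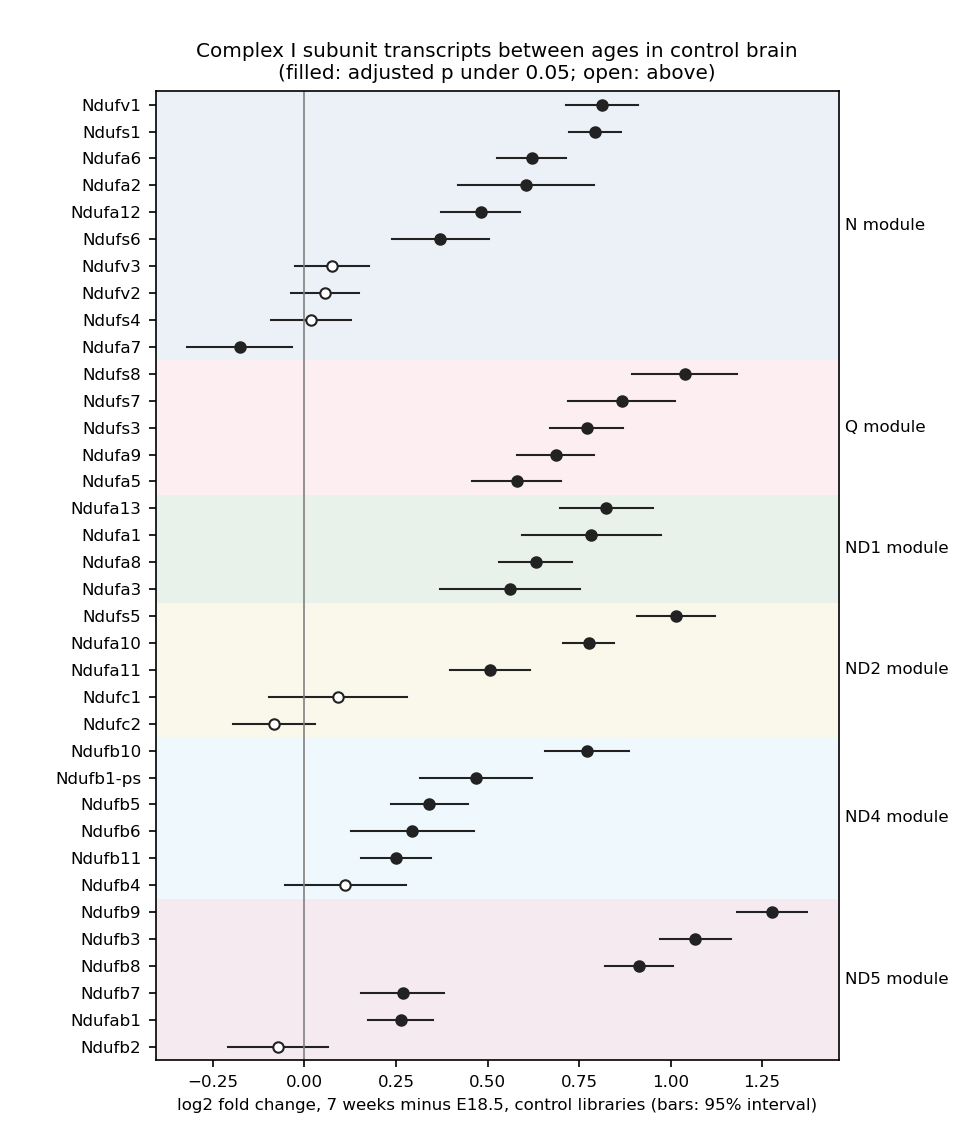
Log2 fold change of 36 members, 7-week minus E18.5 control libraries (5 and 6 libraries; bars: 95% interval), grouped by module. Filled points passed an adjusted p under 0.05: 28 lie above 0, Ndufa7 lies below, and 7 open points did not pass.

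In the N module, 6 of 10 members rose, 1 fell and 3 did not pass, with a median log2 fold change of 0.43. Ndufs1 (chr1:63143596-63176833, GRCm38), the largest subunit and the carrier of several iron-sulfur clusters, stood from 89.4 to 98.6 (median 93.0) CPM in E18.5 controls and from 89.8 to 98.0 (median 91.3) CPM in E18.5 TETA libraries. At 7 weeks its levels were 160.2, 161, 173, 163 and 153 CPM in controls and 151, 147, 149 and 155 CPM in TETA libraries. Every 7-week library was above every E18.5 library, and among controls Ndufs1 rose by 0.79 on the log2 scale (SE 0.04, adjusted p = 8.68e-20 by edgeR's quasi-likelihood test). Ndufv1 (chr19:4007384-4012806) binds the flavin that accepts electrons from NADH. It stood from 77.2 to 96.2 (median 92.2) CPM in E18.5 controls and from 79.8 to 99.0 (median 93.6) CPM with TETA. The 7-week values were 153, 153, 164, 156 and 166 CPM in controls and 159, 153, 156 and 153 CPM with TETA, again all above E18.5, and Ndufv1 rose by 0.81 (SE 0.05).

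Ndufv2 (chr17:66078638-66101559), which works beside Ndufv1 and holds an iron-sulfur cluster, was the core subunit without a call between ages by edgeR's quasi-likelihood test. Its level ran from 78.9 to 96.2 (median 88.1) CPM in E18.5 controls and from 78.4 to 93.1 (median 87.7) CPM in E18.5 TETA libraries, with 94.6, 90.2, 92.3, 86.2 and 93.6 CPM in 7-week controls and 90.4, 84.4, 88.5 and 89.8 CPM in 7-week TETA libraries. The 4 groups overlapped throughout, and the log2 fold change between control ages was 0.06 with a 95% interval of -0.04 to 0.15. With only genes at a mean count of at least 50 kept, Ndufv2 was called higher at 0.11 (adjusted p = 0.0313 by the same test).

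Among the accessory N module subunits, Ndufa6, which anchors an acyl carrier protein, rose by 0.62, Ndufa2, a thioredoxin-fold subunit, by 0.60, Ndufa12, which takes the place of the assembly factor Ndufaf2, by 0.48 and the zinc-binding Ndufs6 by 0.37. Ndufs4, whose loss gives mice a Leigh-like disease, had a log2 fold change of 0.02 (95% interval -0.09 to 0.13), and Ndufv3, a small subunit at the tip of the arm, one of 0.08 (-0.03 to 0.18); neither passed. Ndufv3 was called higher by DESeq2 (0.11, adjusted p = 0.03005) and by edgeR at a mean count of at least 50 (0.13, adjusted p = 0.019). Ndufa7, an accessory subunit of the same arm, went the other way. It stood from 53.8 to 62.8 (median 56.1) CPM in E18.5 controls and from 45.2 to 66.4 (median 58.5) CPM in E18.5 TETA libraries, with 46.7, 57.4, 54.0, 48.6 and 48.9 CPM in 7-week controls and 57.2, 46.1, 48.4 and 52.6 CPM in 7-week TETA libraries. Its control groups overlapped, and the fall of 0.18 on the log2 scale (SE 0.07, adjusted p = 0.0205 by edgeR's quasi-likelihood test) was no longer called in 7 of 29 alternative settings, among them DESeq2 with an adjusted p of 0.0634 and leaving out E18.5 control 3-2 (0.0528) or 7-week control 1 (0.0713), 4 (0.0511) or 5 (0.0502).

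All 6 members of the Q module rose, with a median log2 fold change of 0.75 and values from 0.58 (Ndufa5) to 1.04 (Ndufs8). Ndufs7 (chr10:80249121-80256794), the subunit that holds the last iron-sulfur cluster before ubiquinone, stood from 29.3 to 38.8 (median 34.2) CPM in E18.5 controls and from 27.8 to 40.2 (median 36.8) CPM with TETA. At 7 weeks the values were 57.1, 68.4, 65.5, 61.6 and 64.1 CPM in controls and 59.6, 60.6, 60.4 and 61.6 CPM with TETA. The ages did not overlap, and Ndufs7 rose by 0.87 (SE 0.07).

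Ndufs8 (chr19:3908863-3912774), which carries iron-sulfur clusters towards Ndufs7, had the greatest rise of the core subunits. Its level ran from 29.6 to 43.3 (median 39.4) CPM in E18.5 controls and from 34.7 to 43.8 (median 41.2) CPM in E18.5 TETA libraries, and it was 73.1, 80.6, 79.0, 76.8 and 84.0 CPM in 7-week controls and 78.9, 63.6, 77.6 and 72.0 CPM in 7-week TETA libraries. Between controls this was a 2.05-fold higher level (log2 1.04, SE 0.07, adjusted p = 6.19e-15 by edgeR's quasi-likelihood test), with no overlap between ages. Ndufs3 (chr2:90894634-90904827), a core subunit without a cluster of its own, stood from 47.0 to 55.0 (median 49.5) CPM in E18.5 controls and from 44.0 to 54.0 (median 50.9) CPM with TETA. Its 7-week levels were 84.2, 93.7, 90.8, 81.6 and 80.6 CPM in controls and 85.9, 81.4, 81.8 and 87.4 CPM with TETA, all above E18.5, and it rose by 0.77. Both accessory members rose as well, Ndufa9, a nucleotide-binding subunit near the ubiquinone pocket, by 0.69 and Ndufa5, which sits on the matrix side, by 0.58. Over the 7 core subunits 6 rose, with a median of 0.79, and of the 30 accessory subunits 23 rose and 1 fell, with a median of 0.49.

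In the membrane arm, all 4 members of the ND1 module rose, with a median of 0.71: Ndufa13, also known as GRIM-19, by 0.82, the X-linked Ndufa1 by 0.78, the cysteine-rich Ndufa8 by 0.63 and the short membrane subunit Ndufa3 by 0.56. In the ND2 module 3 of 5 rose. Ndufa10 (chr1:92439010-92473860), a subunit related to nucleoside kinases, stood from 83.1 to 89.1 (median 85.7) CPM in E18.5 controls and from 82.2 to 90.1 (median 86.6) CPM with TETA. Its 7-week levels were 147, 143, 144, 152 and 151 CPM in controls and 140.2, 144, 137 and 147 CPM with TETA. It varied little within a group, and its rise of 0.78 (SE 0.03) had the second smallest p of all members. Ndufs5, on the intermembrane side, rose 2.02-fold and Ndufa11, a membrane subunit at the contact with complex III in supercomplexes, by 0.51. The paired membrane subunits Ndufc1 and Ndufc2 did not pass, at 0.09 (95% interval -0.10 to 0.28) and -0.08 (-0.20 to 0.03). Ndufc2 stood from 54.9 to 64.1 (median 62.7) CPM in E18.5 controls and from 57.8 to 71.1 (median 62.2) CPM with TETA, beside 56.6, 64.2, 57.1, 53.7 and 57.8 CPM in 7-week controls and 60.3, 57.3, 51.5 and 55.8 CPM with TETA. The groups overlapped, and without 7-week control 2 Ndufc2 was called lower at -0.12.

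The ND4 module, in the distal membrane arm, had the smallest median, 0.32, with 5 of 6 members higher. Ndufb10, which lies on the intermembrane side, rose by 0.77, Ndufb1-ps by 0.47, Ndufb5 by 0.34, Ndufb6 by 0.29 and the X-linked Ndufb11 by 0.25, while Ndufb4 did not pass at 0.11 (95% interval -0.05 to 0.28). Ndufb1-ps is annotated as a long non-coding RNA in GENCODE M21 and as the protein-coding Ndufb1 in RefSeq.

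The ND5 module at the far tip held both the greatest rises and a member that did not pass. Ndufb9 (chr15:58933756-58939488), a subunit of the LYR family that anchors an acyl carrier protein, stood from 43.2 to 51.0 (median 46.8) CPM in E18.5 controls and from 45.3 to 51.4 (median 48.0) CPM with TETA. At 7 weeks it was at 115, 117, 107, 114 and 118 CPM in controls and 107, 110.0, 112 and 96.1 CPM with TETA. No library of an age came near the other age, and the control level rose 2.42-fold (log2 1.28, SE 0.05, adjusted p = 6.29e-22 by edgeR's quasi-likelihood test), the smallest p and the greatest fold change of the members. Ndufb3 (chr1:58586384-58595964), a small membrane subunit, stood from 29.4 to 35.6 (median 30.9) CPM in E18.5 controls and from 28.0 to 33.3 (median 31.2) CPM with TETA. It was at 66.8, 66.2, 65.3, 66.7 and 67.2 CPM in 7-week controls and 62.4, 60.7, 67.6 and 60.4 CPM in 7-week TETA libraries. It rose by 1.07 on the log2 scale between controls (SE 0.05), and the 7-week controls lay within a narrow band. Ndufb8 (chr19:44548572-44555440), widely used as the blotting marker of assembled complex I, ran from 54.9 to 63.7 (median 63.0) CPM in E18.5 controls and from 53.8 to 63.7 (median 59.5) CPM with TETA, and 108, 119, 115, 114 and 115 CPM in 7-week controls and 104, 104, 108 and 114 CPM with TETA. It rose 1.88-fold without overlap between ages.

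Ndufb7, an intermembrane-space subunit, rose by 0.27, and Ndufab1, the mitochondrial acyl carrier protein that also serves fatty acid synthesis and sits in both arms of the enzyme, by 0.26. Ndufb2, a small membrane subunit, stood from 28.3 to 31.8 (median 30.5) CPM in E18.5 controls and from 26.1 to 31.4 (median 29.1) CPM with TETA, and 25.8, 30.8, 33.0, 26.7 and 27.5 CPM in 7-week controls and 35.8, 27.6, 29.1 and 34.1 CPM with TETA. Its groups overlapped at a log2 fold change of -0.07 (95% interval -0.21 to 0.06). Ndufb2, Ndufb8 and Ndufb9 share exonic bases on the same strand with a further annotated gene (Gm42420, Gm20538 and Gm49356 in turn), and how such reads were counted is not given in the sources used here, so their levels are uncertain to that extent. Transcript length did not order the age changes (Spearman's rho 0.09 over the 37 genes, a description across genes that share the same libraries). Outside the members, the omitted Ndufa4 rose by 0.91 and its paralog Ndufa4l2 fell by 0.54, from 2.55 ± 0.0976 CPM to 1.75 ± 0.382 CPM (SD, n = 6 and 5).

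TETA was next compared with control at E18.5. No member passed: 0 of 37 at an adjusted p under 0.05 by edgeR's quasi-likelihood test, 0 at an unadjusted p under 0.05 and 0 by DESeq2. Over the 13794 genes tested, 0% passed after adjustment and 4.78% had an unadjusted p under 0.05, and DESeq2 called 10 genes. The members' log2 fold changes ran from -0.08 (Ndufab1) to 0.08 (Ndufa2), with a median of -0.00037 beside -0.0027 over all genes, 18 above 0 and 19 below, against 48.2% and 51.8% of all genes. This split rested on single libraries: 30 members lay above 0 and 7 below without TETA library 1-2, 27 and 10 without control 1-1, 22 and 15 without control 3-1, 11 and 26 without control 1-2, 12 and 25 without TETA library 2-2 and 13 and 24 without control 2-2. The 95% intervals of all 37 lay between -0.22 and 0.27. Each is for 1 member alone and takes the libraries as independent, which is not stated. Control and TETA libraries overlapped for every member, where 0.319% of all genes did not overlap. The summed level was 1906 ± 103 CPM in controls and 1908 ± 118 CPM with TETA (SD, n = 6 each).

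The 3 members with the smallest p at E18.5 showed how small these differences were. Ndufab1 stood from 49.7 to 57.7 (median 52.4) CPM in controls and from 48.1 to 52.6 (median 49.8) CPM with TETA, a log2 difference of -0.08 (SE 0.04; adjusted p = 0.996 by edgeR's quasi-likelihood test). Ndufb4 stood from 12.8 to 14.7 (median 14.2) CPM in controls and from 11.6 to 16.4 (median 15.3) CPM with TETA, a difference of 0.08 (SE 0.07). Ndufc2, whose values are given above, differed by 0.05 (SE 0.05). Most controls lay inside the range of the TETA libraries for each of the 3. Among the core subunits the differences ran from -0.02 (Ndufv2) to 0.07 (Ndufs8). Medians by module ran from -0.04 (ND5 module) to 0.03 (ND2 module). Of the 10 cell type lists no gene was called at this age by edgeR's quasi-likelihood test. At an unadjusted p under 0.05 there were 2 striatum, 1 astrocyte and 3 of 4 endothelial markers (endothelial summed 114 to 129 CPM in controls and 128 to 143 CPM with TETA).

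**Figure D3:**
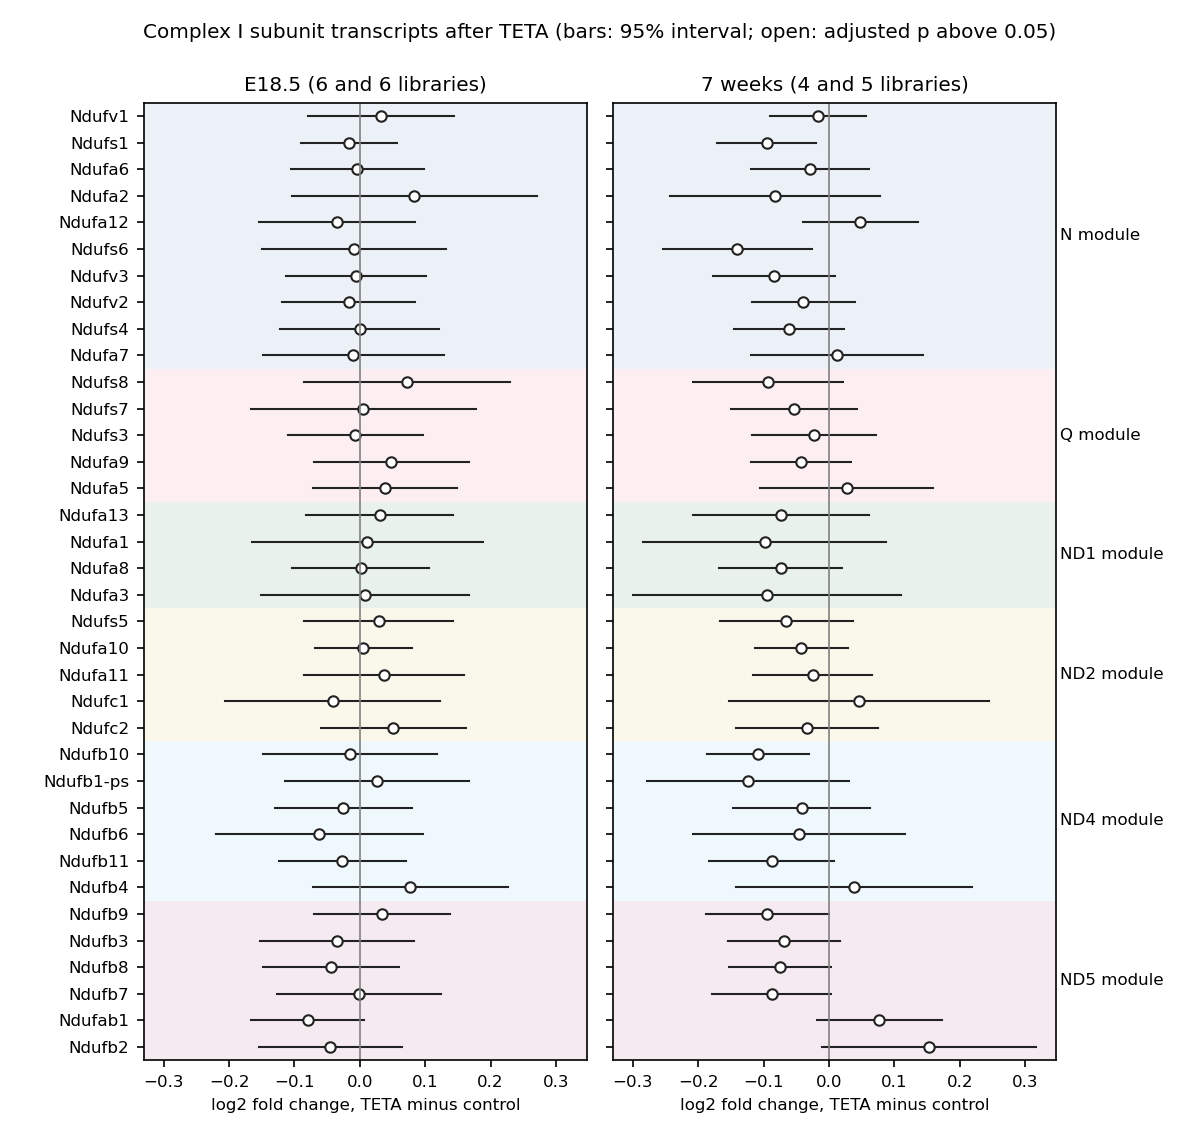
Log2 fold change of 36 members, TETA minus control, at E18.5 (left) and 7 weeks (right), grouped by module (bars: 95% interval). All points are open because none of them passed an adjusted p under 0.05; at 7 weeks 29 of 36 points lie below 0, at E18.5 19 of 36.

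At 7 weeks, again no member passed the test between TETA and control. The count was 0 of 37 by edgeR's quasi-likelihood test and 0 by DESeq2, where 9.96% of the 14240 genes tested were called by edgeR, 5.67% higher and 4.28% lower. At an unadjusted p under 0.05 there were 4 members by edgeR and 4 by DESeq2, beside 24% of all genes. This count ran from 2 to 13 over 16 alternatives: it was 13 without TETA library 1 (35.1% of members, beside 22.6% of all genes). It was 9 without control 1 (24.3% of members, beside 3262 of 14166 genes) and 8 with upper quartile scaling (21.6%, beside 3492 of 14240 genes). Without TETA library 3 it was 7 (18.9%, beside 2865 of 14294 genes). The signs leaned 1 way: 30 of 37 members lay below 0, against 49.9% of all genes, with a median log2 fold change of -0.05 beside 0.00019 over all genes. All 7 core subunits lay below 0, from -0.10 (Ndufs1) to -0.02 (Ndufv1), and so did all 4 members of the ND1 module. Signs of members that vary together within a group are not independent of each other, so this count carries no test. Over all members the differences ran from -0.14 (Ndufs6) to 0.15 (Ndufb2), and the 95% intervals lay between -0.30 and 0.32. The summed level was 2846 ± 87.2 CPM in controls (SD, n = 5) and 2727 ± 112 CPM with TETA (SD, n = 4, from 2606 to 2872), which overlapped.

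Ndufb10 (chr17:24722060-24724478) had the smallest p of the members at 7 weeks. It was at 108, 109, 112, 113 and 112 CPM in controls and at 103, 94.9, 105 and 105 CPM with TETA, so each TETA library was below each control. Ndufb10 was the only member whose groups did not overlap, against 11.3% of all genes, and its log2 difference was -0.11 (SE 0.04, 95% interval -0.19 to -0.03, adjusted p = 0.0713 by edgeR's quasi-likelihood test). Ndufs1, whose values are given above, was lower in TETA libraries 1 to 3 than in every control, while TETA library 4 lay above control 5, with a difference of -0.10 (SE 0.04). Ndufs6 (chr13:73319838-73328542) was at 50.1, 53.8, 53.3, 47.8 and 50.4 CPM in controls and 51.6, 42.1, 46.0 and 43.9 CPM with TETA. TETA library 1 lay among the controls and the other 3 below them, with a difference of -0.14 (SE 0.05). Ndufb9 had the fourth unadjusted p under 0.05, at -0.09 (95% interval -0.19 to -0.00086). In the other direction Ndufb2 was at 0.15 (-0.01 to 0.32), Ndufab1 at 0.08, Ndufa12 at 0.05, Ndufc1 at 0.05, Ndufb4 at 0.04, Ndufa5 at 0.03 and Ndufa7 at 0.01. Without TETA library 1, 3 members were called lower, Ndufs6 at -0.20, Ndufa13 at -0.17 and Ndufa3 at -0.25, or 8.11% of the members beside 8.07% of all genes in that fit. With the mean level of the striatum markers as a covariate, Ndufa13 stood at 0.12 and Ndufa3 at 0.30, on the other side of 0, and Ndufs6 at -0.10. The summed level of these markers did not overlap between the groups (1078 to 1321 CPM in controls and 488 to 624 CPM with TETA). A fit with this covariate can hardly separate TETA from the striatum level, so no direction is read from these values.

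Markers of a brain region moved with TETA at 7 weeks. All 13 striatum markers were called lower, with a summed level of 1078 to 1321 CPM in controls and 488 to 624 CPM with TETA. Of the 6 astrocyte markers 2 were called lower and 5 had an unadjusted p under 0.05 (summed 1952 to 2333 and 1872 to 2035 CPM), and of the 6 oligodendrocyte markers none passed, though all 6 lay below 0 and 3 had an unadjusted p under 0.05 (summed 6589.7 to 7772 and 5849 to 6876 CPM). Choroid plexus markers summed to 60.5 CPM in control 4 and to 2.75 to 4.08 CPM in the other controls, beside 1.88 to 4.38 CPM with TETA, and the medians were 3.46 and 3.66 CPM; 1 of the 4 tested was called lower. Of 5 progenitor and cycling cell markers tested 2 were called lower (median -0.20; all 6 summed 53.6 to 60.8 and 47.2 to 54.0 CPM). Of 5 neuron markers 1 was called higher and 1 lower, and of 4 endothelial markers 1 was called higher, with 3 of either list at an unadjusted p under 0.05. The microglia and blood lists gave no call, with 1 and 0 genes at an unadjusted p under 0.05. The 6 markers of cortical excitatory neurons gave no call (summed 2242 to 2418 and 2244 to 2347 CPM). With the mean level of the striatum list as a covariate, the members' median was -0.07, with 24 of 37 below 0. Because the summed striatum level did not overlap between the groups, that fit can hardly separate it from TETA, and no direction is read. In that fit 0 members were called, but so was only 1 of all 14240 genes (0.00702%), and 2 members had an unadjusted p under 0.05, beside 4.92% of all genes, so the count of calls does not describe the members. The part of these cell type and region markers in the members' values was not tested further.

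The difference between the TETA effects at the 2 ages was tested as an interaction over all 21 libraries. No member passed (0 of 37 by edgeR's quasi-likelihood test and 0 by DESeq2), where 3.1% of 14660 genes did, 1.67% upward and 1.43% downward. At an unadjusted p under 0.05 there were 1 member by edgeR and 2 by DESeq2, beside 15.9% of all genes by edgeR. Over 27 alternatives this count ran from 0 to 7, and the 7 came without E18.5 TETA library 1-2 (18.9% of members, beside 18% of all genes). The difference lay below 0 for 31 members and above 0 for 6, against 52.4% and 47.6% of all genes, with a median of -0.07 and 95% intervals between -0.45 and 0.38. Ndufab1 had the smallest p: TETA was -0.08 at E18.5 and 0.08 at 7 weeks, a difference of 0.14 (95% interval 0.01 to 0.27, adjusted p = 0.252 by edgeR's quasi-likelihood test). Its levels at 7 weeks were 61.2, 67.7, 67.2, 60.2 and 60.5 CPM in controls and 68.5, 62.3, 65.3 and 68.8 CPM with TETA, which overlapped. Ndufb9 followed with -0.14 (-0.28 to 0.00053) and Ndufb2 with 0.19 (-0.01 to 0.38).

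The members were set beside the rest of the respiratory chain and its supply of electrons. Between control ages the subunit lists of complex III and complex IV moved as a whole, with 9 of 9 and 11 of 11 genes higher and medians of 0.47 and 0.81. Uqcrc1, a core protein of complex III, rose by 0.83 and its small subunit Uqcr10 by 1.22. Cox8a, a structural subunit of complex IV, rose by 1.86 and Cox4i1, its main nuclear-encoded regulatory subunit, by 1.19. For ATP synthase 11 of 17 genes rose and 1 fell (median 0.42), with Atp5b, the catalytic beta subunit, at 0.59 and Atp5d, of its central stalk, at 0.86. Complex II had 2 of 4 genes higher, Sdha, its flavoprotein, at 1.40 and the membrane anchor Sdhd at 0.40. In the tricarboxylic acid cycle, which supplies the NADH, 13 of 14 genes rose and 1 fell (median 0.75), with Idh3b and Idh3a, subunits of isocitrate dehydrogenase, at 1.30 and 1.03.

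The 19 assembly factors of complex I, which build the enzyme without staying in it, did not share the members' direction: 9 rose and 7 fell, with a median of 0.05. Tmem126b, a factor of membrane arm assembly, rose by 0.98 and Dmac2, a distal membrane arm factor, by 0.94. Of 14 regulators of mitochondrial biogenesis 4 rose and 9 fell, with the coactivator gene Ppargc1a at 1.29 and Gabpb1, a partner of GABPA, at -1.39. These lists were not compared with the members by a test.

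With TETA at 7 weeks, complex III lay below 0 for 9 of 9 genes with 0 called, and complex II for 4 of 4 with 0 called, both by edgeR's quasi-likelihood test (2 and 1 genes at an unadjusted p under 0.05). Complex IV lay below 0 for 11 of 11 genes, and 1 of them passed: Cox4i1 fell by 0.11, from 502 ± 23.1 CPM to 463 ± 6.12 CPM. Of 17 ATP synthase genes 16 lay below 0 and 3 passed, among them Atp5a1 at -0.12, the alpha subunit, and Atp5o, a subunit of the stalk, at -0.14. Of 14 genes of the tricarboxylic acid cycle 13 lay below 0 and 3 passed, among them Ogdh, of the oxoglutarate dehydrogenase complex, at -0.14. At an unadjusted p under 0.05 there were 5 of 11 genes of complex IV, 5 of 17 of ATP synthase and 6 of 14 of the cycle. Over all genes 24% had such a p and 9.96% were called, beside 4 and 0 of the 37 members. The medians were -0.06 for complex II and complex III, -0.09 for complex IV, -0.07 for ATP synthase and -0.06 for the cycle, beside -0.05 for the members, while the assembly factors had 8 of 19 below 0 and a median of 0.01. At E18.5 all of these lists had 0 genes called by edgeR's quasi-likelihood test and 0 at an unadjusted p under 0.05, with medians from -0.02 to 0.02.

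**Figure D4:**
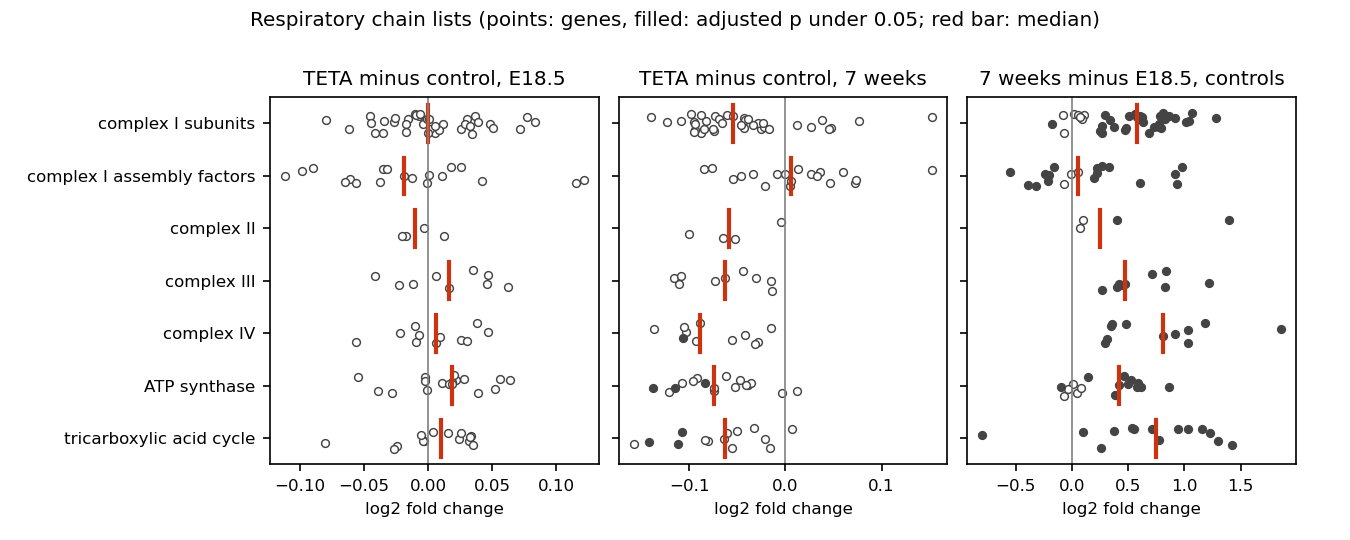
Log2 fold change of each gene of 7 lists for TETA at E18.5, TETA at 7 weeks and age in controls (points: genes, filled where the adjusted p was under 0.05; red bar: median of the list; the horizontal scales differ between panels). The complex I subunits have medians of -0.00037, -0.05 and 0.58 in the 3 panels.

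Within a group the members varied together. The median pairwise correlation between members' log2 levels was 0.68 over the 6 control and 0.68 over the 6 TETA libraries at E18.5, and 0.45 over 5 control and 0.56 over 4 TETA libraries at 7 weeks, as a description of libraries that also share depth and scaling. At E18.5 control library 1-1 was the highest control for 29 of 37 members and 1-2 the lowest for 22. Among the TETA libraries 2-2 was the highest for 26 members and 1-2 the lowest for 32, with a median of -0.17 on the log2 scale against the control mean. In TETA library 1-2 the deviation from the group mean went with transcript length, the shorter members lying lower (Spearman's rho 0.42 over the 37 genes), while in control 1-2 rho was 0.09; both describe genes of 1 library, and RNA quality was not tested. At 7 weeks control 2 was the highest control for 24 members, TETA library 1 the highest TETA library for 23 and TETA library 2 the lowest for 26. The spread of library medians within a group was 0.08 and 0.10 (SD) at E18.5 and 0.06 and 0.07 at 7 weeks. With both E18.5 libraries numbered 1-2 left out, 0 members were called for TETA at E18.5 and the median was 0.02.

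**Figure D5:**
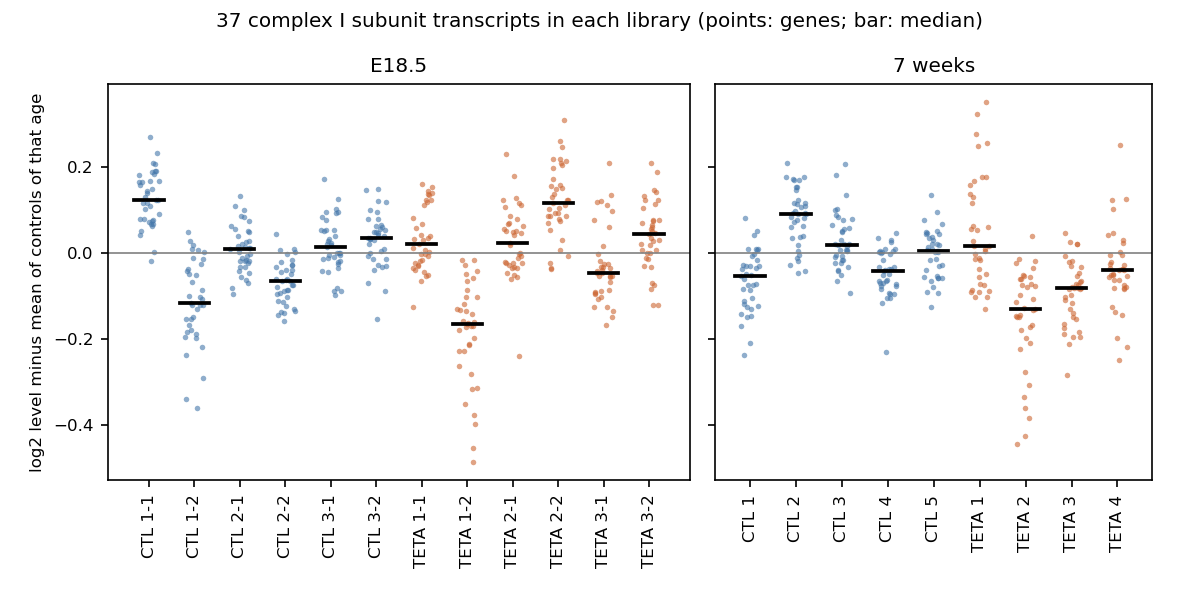
Log2 level of each member minus its mean over the controls of that age, by library (points: 37 genes; bar: median; blue: control, orange: TETA). The members shift together in a library, lowest in E18.5 TETA library 1-2 with a median of -0.17 and highest in E18.5 control 1-1 with 0.12.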

How the data were processed

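Raw counts for each gene symbol were deposited by the authors in a table for each age, per the file headers, and 0 library columns were left unmapped. STAR 2.7.1a, featureCounts 2.0.1 and the build mm10 are named in the submitters' processing notes; strand and multi-mapping settings are not given in the sources used here. In the E18.5 table, 1940 rows at 0 in control 1-1 held multiples of 11 in every library and were divided by 11, which touched 0 members; the counts as deposited were an alternative.

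Each age was fitted alone for TETA, and all 21 libraries together for age and for the interaction, with edgeR 4.0.16 (filterByExpr with a minimum count of 10, TMM, quasi-likelihood test, Benjamini-Hochberg adjustment over all genes tested, threshold 0.05) in R 4.3.3, with limma 3.58.1. DESeq2 1.42.0 was an alternative, beside other scalings and filters, a replicate block, a striatum covariate and leaving out each library. Python 3.11.15, numpy 2.4.6, pandas 2.3.3 and matplotlib 3.10.9 were used for levels and plots. The fits were tested on simulated counts with planted log2 changes of 0.5 and 1. Of the changes of 0.5, 92% were called for TETA at E18.5, 79% for TETA at 7 weeks, 84% for age and 68% for the interaction. Smaller changes, such as the members' differences with TETA, were not simulated. Replicate libraries all differed by more than counting noise (lowest chi-square per gene 2.29).

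The members and lists were chosen with earlier results of these data known. The values of 1 member, which stays in all counts, and of 1 gene of another list are not reported here. The other 36 members were named. Values by library were given for the other core subunits and for members called with the smallest p (at most 5 per direction, otherwise the 3 smallest p). Between ages they were also given for the 3 highest and the 3 lowest log2 fold changes, counted with their sign. Other lists are named by their 2 smallest p among called genes.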

Additional observations from a re-analysis of the deposited data

Results flagged for a closer look

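For each member and for the summed level, the highest and lowest library of a group were set against the gap to the nearest other library (Dixon's test at 95%). Of 152 groups examined 8 stood out, where chance gives about 1 in 20, or 7.6. Among TETA libraries at 7 weeks, library 1 was far above the rest for Ndufa13 (108 CPM; others 83.4 to 84.8) and for Ndufa5 (62.6 CPM; others 49.1 to 51.2), and library 3 was below the rest for Ndufv3 (45.1 CPM; others at 47.1). Among 7-week controls, library 2 was above the rest for Ndufb5 (87.8 CPM; others 74.3 to 76.5). At E18.5, TETA library 1-2 was below the rest for Ndufa2 (22.5 CPM; others 33.3 to 38.2) and Ndufb6 (24.6 CPM; others 33.1 to 36.2). E18.5 control 1-1 was above the rest for Ndufb6 (39.8 CPM; others 31.8 to 34.6), and control 1-2 was below the rest for Ndufb7 (37.8 CPM; others 46.5 to 49.95).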

How the results depend on the processing

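For TETA at E18.5, 0 members were called in all 22 alternatives (edgeR or DESeq2), with medians from -0.03 to 0.03; leaving out a library in turn gave the same range. For TETA at 7 weeks, upper quartile scaling called 1 member (Ndufb10, -0.12, adjusted p = 0.0412) and leaving out a library 0 to 3, with medians from -0.07 to -0.04 and 3 reached without TETA library 1; the cause was not tested. Adjusted p for Ndufb10 ran from 0.0412 to 1.00 over these alternatives. For age, leaving out a library called 29 to 31 members with medians from 0.54 to 0.60, and the other alternatives 29 to 32. In the main fit 81.1% of members were called, beside 89.3% of all genes. Library totals without TMM factors lowered the members' median to 0.43, with 28 higher and 4 lower; the median of all genes shifted by -0.15, and the members' median relative to it was 0.60 either way. Under that scaling Ndufs4 reversed to -0.13 and Ndufb2 (-0.22) and Ndufc2 (-0.23) were called lower, while Ndufb6 (0.15) lost its call. With alternatives chosen after seeing the data, TETA libraries in place of controls gave 29 higher and 2 lower, and leaving out both libraries numbered 1-2 gave 29 and 1. For the interaction 0 members were called in all 27 alternatives, with medians from -0.11 to -0.05 when a library was left out and -0.08 to -0.04 otherwise, the latter from library totals without TMM factors. Library numbers did not pair the libraries (same-number correlations from -0.28 to 0.28 at E18.5 and -0.07 to -0.03 at 7 weeks); with the replicate block 0 members were called at either age (medians 0.00079 and -0.05), and over all genes at 7 weeks 1072 in place of 1418. The lowest count of a member in a library was 196; what depth limits was not tested.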
